A study of Mus musculus with 6 samples.

Results

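The 59 genes described here encode proteins that make ribosomes in the nucleolus, and they were chosen by name and function: polymerase I and its factors (6 genes), small nucleolar ribonucleoproteins, or snoRNPs (9), assembly of the small subunit (24), assembly of the large subunit (16), and 4 abundant nucleolar proteins that act at several steps. The list has no expression threshold, but it was drawn up with the null-to-control results of these libraries known, so counts of its members in that comparison describe the list and support nothing beyond it. Of the 59 genes, 58 were among the 23284 genes of all 6 count tables, and all 58 were among the 10512 genes with enough reads to test. Noc2l, a large-subunit assembly factor, was not analysed here.

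RNA came from erythroblasts, the nucleated precursors of red cells, of C57BL/6 mouse embryos at E10.5, sorted for the red cell antigen Ter119 and the transferrin receptor CD71. The null group held 3 libraries of genotype SETD8fl/fl EpoR Cre. Cre driven by Epor, a gene of erythroid cells, can there delete the floxed Setd8, the histone H4 lysine 20 methyltransferase. The control group held 3 libraries, of which controls 1 and 3 were Setd8 +/+ EpoRCre and control 2 was Setd8 fl/fl EpoR WT. The cells came from fetal blood according to the design text and from fetal liver according to the labels. The labels do not say whether replicates came from separate embryos, so the spread behind each p-value is that of these samples and may be technical. Deletion was measured here only through counts over the whole gene: Setd8 stood at 48.9, 100.3 and 96.4 CPM (counts scaled to 1000000 a library) in nulls 1, 2 and 3, against 73.9, 74.8 and 203.5 CPM in controls 1, 2 and 3.

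A ribosome begins as a long precursor RNA that RNA polymerase I transcribes from the repeated ribosomal DNA in the nucleolus. SnoRNPs guide methylation and pseudouridylation of this RNA, while a large complex of assembly factors folds and cuts the part that becomes the small subunit and another set of factors, helicases and GTPases builds the large subunit. Early erythroblasts make ribosomes at a high rate for globin synthesis, and inherited defects in ribosomal proteins cause the disease Diamond-Blackfan anemia.

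Libraries held 7756940 to 21434719 gene counts. Globin genes took 39.9%, 28.3% and 26.5% of them in nulls 1, 2 and 3, against 45.2%, 44.4% and 37.1% in controls 1, 2 and 3. The sample titles of nulls 2 and 3 and of control 3 end in a letter (the lettered set), and those of null 1 and of controls 1 and 2 do not (the unlettered set). The labels do not say what the letter stands for. The sets differ widely, so the comparison of null with control had the title set as a term. Setd8 fell by 0.83 in log2 in that comparison (SE 0.17, adjusted p = 0.00911, edgeR), and each null lay below the controls of its own title set. The 15 erythroid markers found in the files include globin genes, and 1 of them, Hbb-b2, had no read in any library. Together they summed to 505300, 247200 and 214700 CPM in nulls 1, 2 and 3, against 526700, 514500 and 348500 CPM in controls 1, 2 and 3. Of the 11 tested markers 3 fell and 0 rose in the fit described below, where 4.16% of all tested genes fell. The log2 ratio was negative for 9 of the 11.

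Most ribosome assembly genes had lower counts in Setd8 null erythroblasts. Of the 58 tested, 22 fell and 0 rose by edgeR's quasi-likelihood test at a Benjamini-Hochberg adjusted p under 0.05, in a fit in which 4.16% of all tested genes were lower and 8.65% higher in null cells. The null-to-control log2 ratio was negative for 49 members and positive for 9, with a median of -0.61 over members and 0.044 over all tested genes. The range ran from -1.62 for the helicase gene Ddx10 to 0.47 for Polr1c, whose unadjusted p of 0.0809 was above 0.05. Every null library lay below every control library for 25 members, as it did for 9.16% of all tested genes, and the reverse held for 0 members. With group as the only term 0 members passed, 19 were lower at an unadjusted p under 0.05, and the median was -0.55. In that fit 0.00951% of all tested genes were called lower, and 4.99% were lower at an unadjusted p under 0.05. The count also rested on null 1, the null library of the unlettered set, without which 1 member, Nop58, fell. The count was 13 without null 2, 31 without null 3, and 14, 9 and 12 without controls 1, 2 and 3. Of all tested genes 0.368%, 2.13% and 6.68% were called lower without nulls 1, 2 and 3. Without controls 1, 2 and 3 those shares were 1.98%, 1.92% and 1.62%. The presence of Y-linked transcripts, which all 3 nulls and control 1 had, was also added as a further term. In that fit 1 member, Tsr1, fell, and 0.59% of all tested genes were called lower. In bulk RNA, fewer cells of a kind and less RNA per cell cannot be told apart.

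**Figure D1:**
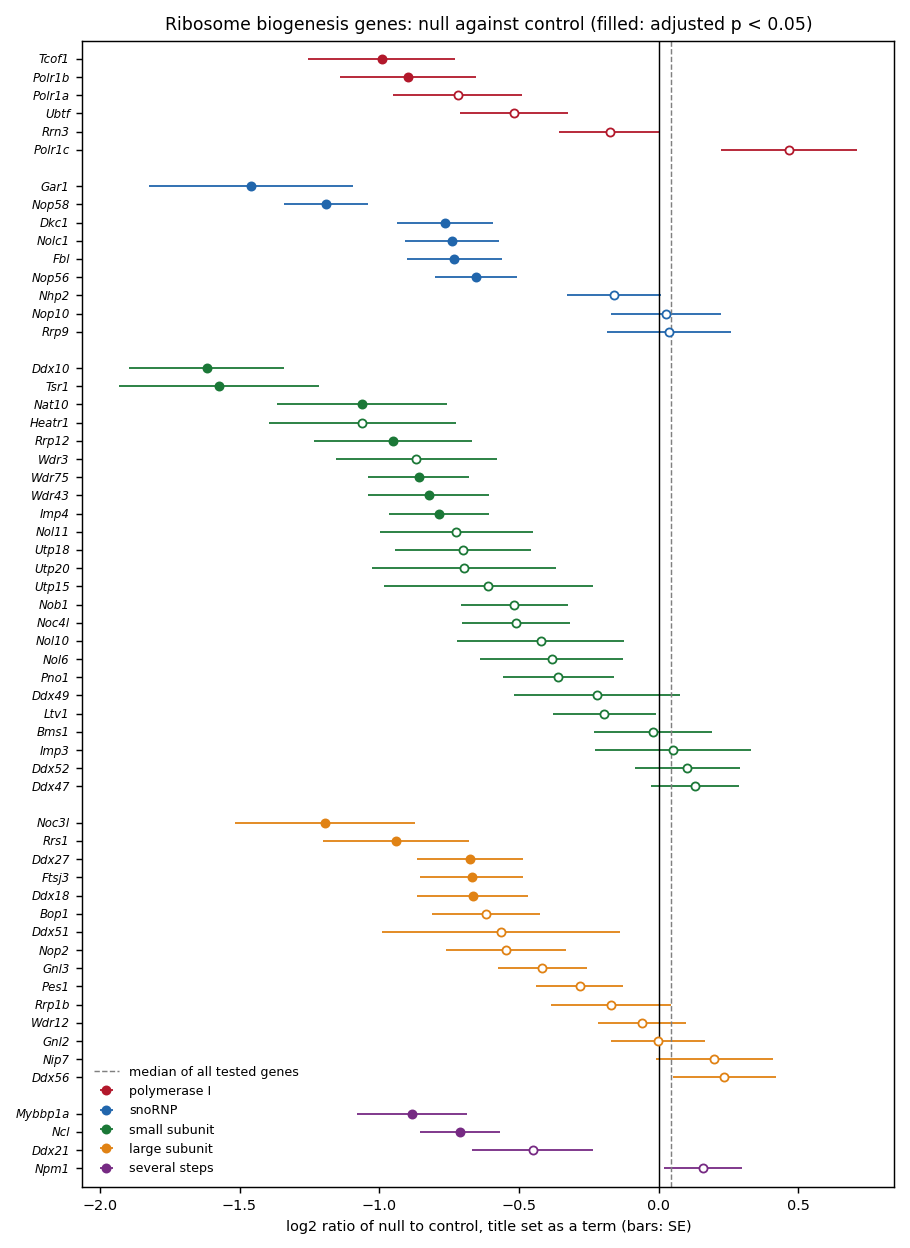
The null-to-control log2 ratio (x axis) is plotted for each of the 58 tested genes, grouped by role and ordered by ratio, with bars for the standard error and filled points for genes that passed. Points lie left of 0 for 49 genes and right of it for 9, and the dashed line marks the median of all tested genes at 0.044.

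Promoter sequence was looked at because many members fell. RefSeq's table for GRCm38.p6 held windows of 300 bases around annotated transcription starts for 51 of the 59 genes. The letters CACGTG, an E-box that reads the same on both strands and is known as a binding sequence of the MYC and USF families, were in a window of 12 of these 51 genes (23.5%), against 12.5% of the 7574 tested genes with a window and 8.09% of all 27025 genes in the table. Of the 18 members that fell and had a window, 4 held it (22.2%), and among 57 ribosomal protein genes with a window 6 did. Searched on both strands, GATAAG, read by GATA factors, was in the window of 1 member (1.96%, against 6.28% of tested genes), and CTCGCGAG was in that of 1 member, Tsr1 (1.96%, against 2.42%). A match is a description of the letters and not a bound site. The windows of the 4 members that fell and held CACGTG follow, all on the plus strand, because they show where the box lies in each, with the box in capitals.
Mybbp1a, chr11:72441077-72441376: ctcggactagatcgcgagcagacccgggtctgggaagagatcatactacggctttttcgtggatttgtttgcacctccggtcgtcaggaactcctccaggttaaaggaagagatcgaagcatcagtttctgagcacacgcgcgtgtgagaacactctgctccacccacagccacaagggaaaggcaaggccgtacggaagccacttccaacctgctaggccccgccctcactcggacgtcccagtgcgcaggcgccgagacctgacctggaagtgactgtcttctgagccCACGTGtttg
Tsr1, chr11:74897830-74898129: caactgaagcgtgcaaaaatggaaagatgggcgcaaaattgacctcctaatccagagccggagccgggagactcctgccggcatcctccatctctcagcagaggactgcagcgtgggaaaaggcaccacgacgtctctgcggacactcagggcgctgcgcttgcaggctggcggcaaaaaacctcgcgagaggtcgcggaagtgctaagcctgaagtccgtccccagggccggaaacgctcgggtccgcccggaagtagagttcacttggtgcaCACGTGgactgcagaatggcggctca
Imp4, chr1:34439579-34439878: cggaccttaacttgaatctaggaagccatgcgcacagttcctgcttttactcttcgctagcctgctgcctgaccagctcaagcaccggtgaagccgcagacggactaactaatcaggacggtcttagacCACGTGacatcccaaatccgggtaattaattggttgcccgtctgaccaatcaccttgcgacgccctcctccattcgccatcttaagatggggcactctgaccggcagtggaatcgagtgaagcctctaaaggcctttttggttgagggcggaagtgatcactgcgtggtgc
Wdr43, chr17:71615965-71616264: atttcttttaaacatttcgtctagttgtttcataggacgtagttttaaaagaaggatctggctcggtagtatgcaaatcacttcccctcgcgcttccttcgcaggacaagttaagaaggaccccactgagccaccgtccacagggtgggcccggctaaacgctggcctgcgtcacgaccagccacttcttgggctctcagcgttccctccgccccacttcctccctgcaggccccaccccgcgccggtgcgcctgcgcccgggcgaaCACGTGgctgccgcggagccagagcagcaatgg
The box began 40, 24 and 17 bases after the annotated start in Mybbp1a, Tsr1 and Wdr43, and upstream of it, at position -121, in Imp4.

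Among the 6 genes of polymerase I transcription 2 fell, and the median log2 ratio was -0.62. Tcof1 encodes treacle, which binds polymerase I and its factor UBF in the nucleolus. Tcof1 stood at 24.1, 35.1 and 23.4 CPM in nulls 1, 2 and 3, against 46.8, 63.4 and 50.5 CPM in controls 1, 2 and 3. All nulls lay below all controls, and Tcof1 fell by 0.99 in log2 (SE 0.26, adjusted p = 0.0295, edgeR). Polr1b, the second largest subunit of polymerase I, stood at 34.2, 59.2 and 67.5 CPM in the nulls, against 61.1, 96.3 and 95.4 CPM in the controls. The highest null exceeded control 1 but each null lay below the controls of its own title set, and Polr1b fell by 0.90 (SE 0.24, adjusted p = 0.0327). Polr1a, the largest subunit, had 34.9, 18.4 and 23.0 CPM in the nulls and 53.9, 48.0 and 38.5 CPM in the controls, without overlap, and its log2 ratio of -0.72 did not pass (SE 0.23, adjusted p = 0.0635).

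Ubtf and Rrn3 did not pass. Ubtf, the gene of UBF, which holds ribosomal DNA in an open state, had 46.2, 65.2 and 73.7 CPM in the nulls and 64.6, 80.1 and 90.9 CPM in the controls. The groups overlapped and the log2 ratio was -0.52 (SE 0.19, adjusted p = 0.106). Ubtf passed with DESeq2 (log2 ratio -0.56, adjusted p = 0.0361) and with length and GC offsets (-0.71, adjusted p = 0.0179). Rrn3, which brings polymerase I to its promoter in growing cells, had 155.4, 54.2 and 73.5 CPM in the nulls and 162, 198 and 70.2 CPM in the controls. Here the lettered libraries were the low ones in both groups, and the log2 ratio was -0.18 (SE 0.18, adjusted p = 0.586). Polr1c, a subunit shared with polymerase III, was 1 of only 2 members in which each null lay above the controls of its own set. It had 90.5, 29.9 and 30.3 CPM in the nulls and 40.9, 55.0 and 29.7 CPM in the controls, and its log2 ratio was 0.018 in the lettered and 0.93 in the unlettered set.

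With the title set as a term the snoRNP genes had the lowest median of the 5 roles, -0.73, and 6 of 9 fell. That order did not hold throughout. Their median was also the lowest in the lettered set, at -0.64. In the unlettered set it was -0.62, above those of the small subunit (-0.79), several steps (-0.73) and the large subunit (-0.68). With group alone it was -0.58, above those of polymerase I (-0.63) and several steps (-0.60). Box C/D particles carry rRNA methylation on a core of fibrillarin (Fbl), Nop56 and Nop58, and all 3 genes fell. Nop58 had the smallest adjusted p of all members and stood at 155, 118 and 116 CPM in nulls 1, 2 and 3, against 342, 389 and 259 CPM in controls 1, 2 and 3. All nulls lay far below all controls, with means of 129.7 ± 21.8 CPM in null and 329.8 ± 65.9 CPM in control (SD, n = 3 each) and a fall of 1.19 in log2 (SE 0.15, adjusted p = 0.000552, edgeR). Nop56 stood at 467, 287 and 317 CPM in the nulls, against 699, 782 and 470.1 CPM in the controls. Null 1 and control 3 nearly met at the edge of the 2 groups, and Nop56 fell by 0.65 (SE 0.15, adjusted p = 0.0142). Fbl, the methyltransferase of these particles, stood at 54.8, 70.2 and 75.0 CPM in the nulls, against 83.3, 84.8 and 130.3 CPM in the controls. The groups did not overlap, and Fbl fell by 0.73 (SE 0.17, adjusted p = 0.0165).

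Box H/ACA particles, which convert uridine to pseudouridine, hold Dkc1, Gar1, Nhp2 and Nop10. Dkc1, the pseudouridine synthase dyskerin, stood at 213, 136 and 159 CPM in nulls 1, 2 and 3, against 432, 432 and 211 CPM in controls 1, 2 and 3. Null 1 was level with control 3, each null lay below the controls of its own set, and Dkc1 fell by 0.77 (SE 0.17, adjusted p = 0.0142). Gar1, picked out after its values were seen, fell by 1.46 (SE 0.37, adjusted p = 0.0238) at few reads in the unlettered set. It had 1.81, 20.6 and 16.3 CPM in the nulls and 6.37, 7.51 and 38.5 CPM in the controls, so that libraries of a title set were more alike than those of a group. Nhp2, an abundant core protein, had 386, 225 and 209 CPM in the nulls and 319.7, 392 and 293 CPM in the controls. Its log2 ratio was -0.16 (SE 0.17, adjusted p = 0.598), with -0.44 in the lettered and 0.13 in the unlettered set. With offsets for transcript length and GC content, added after seeing the data, Nhp2 fell by 0.62 (adjusted p = 0.00508). The log2 ratio of Nop10 likewise was -0.37 in the lettered and 0.42 in the unlettered set, and 0.026 over both.

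Nolc1, a nucleolar phosphoprotein that escorts both kinds of particle, stood at 152, 109 and 135 CPM in the nulls, against 208, 231 and 235 CPM in the controls. All nulls lay below all controls, and Nolc1 fell by 0.74 (SE 0.17, adjusted p = 0.0147, edgeR). Rrp9, a protein of the U3 particle, had a log2 ratio of 0.038 (SE 0.22, adjusted p = 0.937). Of the H/ACA genes 2 passed and 2 did not in the fit without these offsets, and the difference between them was not tested.

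**Figure D2:**
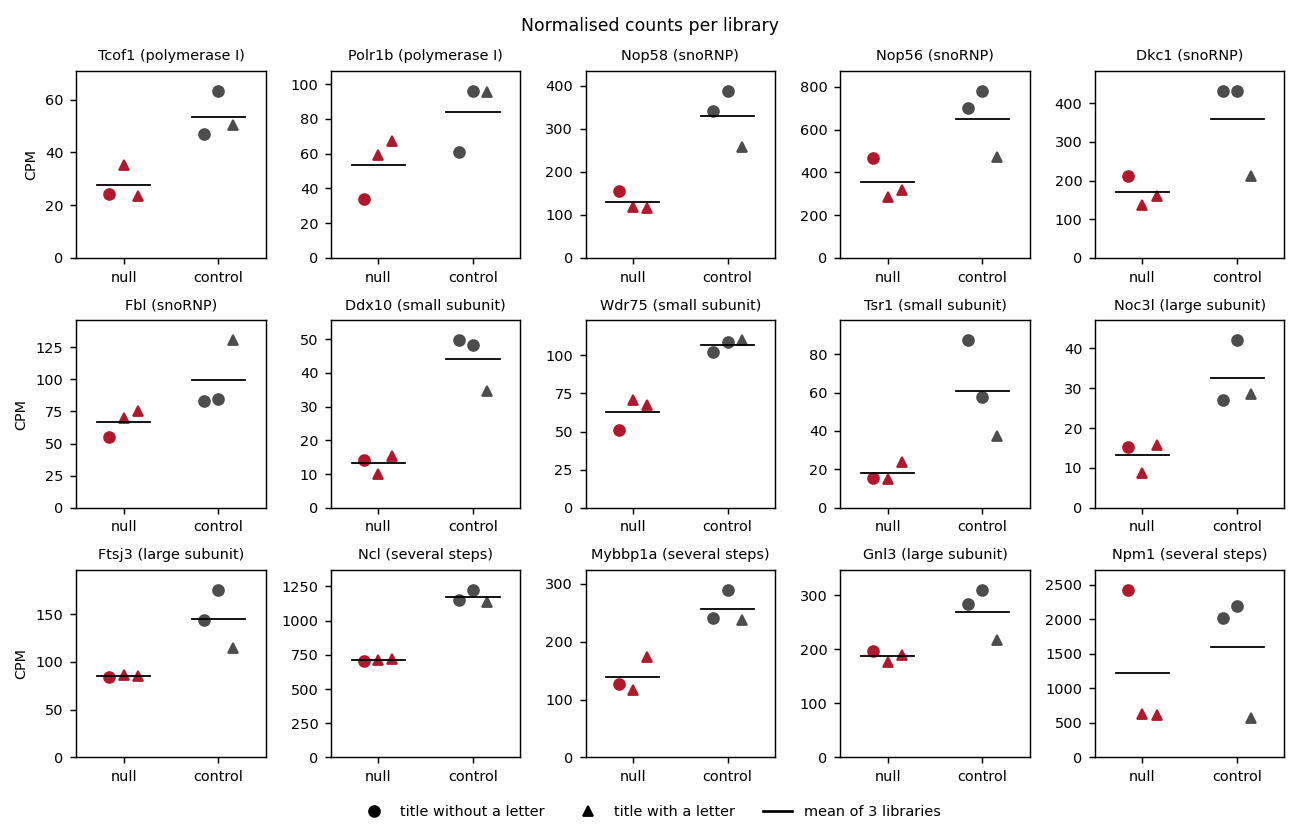
CPM in each library (y axes from 0) are shown for 15 members, null left of control, with circles for the unlettered and triangles for the lettered set and a bar at the mean of 3 libraries. Nulls lie below controls in most panels, while Npm1 separates by title set, at 632 and 613 CPM in lettered nulls and 575 CPM in the lettered control.

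In the class of small-subunit assembly 7 of 24 genes fell, and the median log2 ratio was -0.65. Wdr43 and Wdr75 belong to the complex that binds the precursor RNA first and is also needed for its transcription. Wdr75 stood at 50.9, 70.4 and 67.7 CPM in nulls 1, 2 and 3, against 102, 109 and 109.8 CPM in controls 1, 2 and 3. The 3 controls lay close together and above all nulls, and Wdr75 fell by 0.86 (SE 0.18, adjusted p = 0.0103, edgeR). Wdr43, whose promoter window is shown above, stood at 86.4, 76.3 and 102 CPM in the nulls, against 169, 217 and 125 CPM in the controls. The groups did not overlap, and Wdr43 fell by 0.82 (SE 0.22, adjusted p = 0.0282). Of the same complex, Heatr1, Nol11 and Utp15 had log2 ratios of -1.06, -0.72 and -0.61 and did not pass (adjusted p = 0.0592, 0.109 and 0.328), nor did Cirh1a, which is outside the 59 genes, at -0.31 (adjusted p = 0.348).

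Ddx10 encodes an RNA helicase whose yeast counterpart frees a snoRNA from the precursor. It had the lowest log2 ratio of all members and stood at 14.1, 10.1 and 15.4 CPM in the nulls, against 49.6, 48.2 and 34.6 CPM in the controls. No null came near a control, with means of 13.2 ± 2.73 CPM in null and 44.2 ± 8.27 CPM in control (SD, n = 3 each), and Ddx10 fell by 1.62 (SE 0.28, adjusted p = 0.00333, edgeR). Tsr1, a GTPase-like factor of late small-subunit precursors, stood at 15.4, 15.2 and 24.0 CPM in the nulls, against 87.1, 57.7 and 37.4 CPM in the controls. The groups did not overlap and Tsr1 fell by 1.57 (SE 0.36, adjusted p = 0.0150), with log2 ratios of -0.97 in the lettered and -2.19 in the unlettered set. Imp4, which joins the U3 RNA to the precursor, stood at 76.8, 62.1 and 66.1 CPM in the nulls, against 121, 159 and 104 CPM in the controls. All nulls lay below all controls, and Imp4 fell by 0.79 (SE 0.18, adjusted p = 0.0157).

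The rRNA cytidine acetyltransferase Nat10 and the export factor Rrp12 fell as well, with log2 ratios of -1.06 (SE 0.30, adjusted p = 0.0404, edgeR) and -0.95 (SE 0.28, adjusted p = 0.0479). Ddx47, a helicase and the most abundant gene of the class, had 203, 112 and 136 CPM in the nulls and 185, 178 and 116 CPM in the controls. The groups overlapped and the log2 ratio was 0.13 (SE 0.16, adjusted p = 0.645). Of the remaining genes, none of which passed, Wdr3, Utp18 and Utp20 had log2 ratios of -0.87, -0.70 and -0.70, Nob1, the nuclease that forms the end of small-subunit rRNA, -0.52, Noc4l -0.51, Nol10 -0.42, Nol6 -0.38 and Pno1, the partner of Nob1, -0.36. Ddx49, Ltv1 and the GTPase Bms1 lay at -0.22, -0.19 and -0.020, and Imp3 and Ddx52 at 0.050 and 0.10. Of the genes that did not pass, Nol11, Heatr1, Utp20, Nob1 and Pno1 had every null below every control.

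Among the genes of large-subunit assembly 5 of 15 fell, and the median log2 ratio was -0.55. Noc3l, whose yeast counterpart moves early large-subunit precursors through the nucleolus, stood at 15.3, 8.78 and 15.8 CPM in nulls 1, 2 and 3, against 27.1, 42.0 and 28.4 CPM in controls 1, 2 and 3. All nulls lay below all controls, and Noc3l fell by 1.19 in log2 (SE 0.32, adjusted p = 0.0321, edgeR). Ftsj3, an rRNA methyltransferase, stood at 84.6, 86.6 and 84.8 CPM in the nulls, against 144, 175 and 115 CPM in the controls. The nulls were nearly level and lay below all controls, and Ftsj3 fell by 0.67 (SE 0.18, adjusted p = 0.0350). The helicase genes Ddx27 and Ddx18 fell too. Ddx27 stood at 63.5, 104 and 91.6 CPM in the nulls, against 114, 132 and 129 CPM in the controls, and fell by 0.68 (SE 0.19, adjusted p = 0.0388). Ddx18 stood at 53.0, 67.9 and 67.8 CPM in the nulls, against 79.9, 109 and 95.8 CPM in the controls, and fell by 0.67 (SE 0.20, adjusted p = 0.0483). In both genes every null lay below every control.

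Rrs1, which brings the smallest rRNA of the large subunit into the particle, differed more between title sets than between groups. It stood at 5.43, 28.4 and 32.3 CPM in the nulls, against 10.8, 8.89 and 61.5 CPM in the controls, and fell by 0.94 (SE 0.26, adjusted p = 0.0373, edgeR). Gnl3, nucleostemin, a GTP-binding protein of proliferating cells, had 197, 177 and 190.1 CPM in the nulls and 284, 309 and 216 CPM in the controls. The groups did not overlap, and the log2 ratio of -0.42 did not pass (SE 0.16, adjusted p = 0.114). Gnl3 passed with DESeq2 (log2 ratio -0.46, adjusted p = 0.0293) and with length and GC offsets (-0.57, adjusted p = 0.0111). Pes1, Bop1 and Wdr12 form the PeBoW complex, and none of them passed. Wdr12 had 196, 124 and 132 CPM in the nulls and 209, 234 and 123 CPM in the controls, with overlap and a log2 ratio of -0.061 (SE 0.16, adjusted p = 0.845). Bop1 lay at -0.62 (adjusted p = 0.0577) and Pes1 at -0.28. Of the other genes, the methyltransferase Nop2 lay at -0.55 with every null below every control, Ddx51 at -0.56, Rrp1b at -0.17 and the GTPase Gnl2 at -0.0011, while Nip7 and Ddx56 lay at 0.20 and 0.24.

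Of the 4 genes that act at several steps 2 fell. Ncl, nucleolin, is among the most abundant nucleolar proteins and binds both ribosomal DNA and precursor RNA. Ncl stood at 704, 710.1 and 720.3 CPM in nulls 1, 2 and 3, against 1153, 1222 and 1135 CPM in controls 1, 2 and 3. Libraries of a group were almost level and the groups lay far apart, with means of 711 ± 8.46 CPM in null and 1170 ± 45.7 CPM in control (SD, n = 3 each), and Ncl fell by 0.71 (SE 0.14, adjusted p = 0.00791, edgeR). Mybbp1a, a nucleolar repressor of polymerase I, whose promoter window is shown above, stood at 128, 116 and 174 CPM in the nulls, against 242, 289 and 238 CPM in the controls. All nulls lay below all controls, and Mybbp1a fell by 0.88 (SE 0.20, adjusted p = 0.0137). Ddx21, a helicase that links polymerase I with rRNA processing, had a log2 ratio of -0.45 (SE 0.22, adjusted p = 0.203).

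Npm1, nucleophosmin, the chaperone that gives the outer nucleolus its structure, separated by title set, as Rrn3 and Nip7 did. It had 2421, 632 and 613 CPM in the nulls and 2013, 2196 and 575 CPM in the controls. All 3 lettered libraries were low and all 3 unlettered ones high in both groups. The log2 ratio was 0.16 (SE 0.14, adjusted p = 0.519), with 0.12 in the lettered and 0.20 in the unlettered set, and it was -0.025 with offsets for transcript length and GC content. Unlike Npm1, the sum over members was lower in null within both sets. All members together summed to 8104, 5305 and 5657 CPM in nulls 1, 2 and 3, against 9590, 10830 and 7350 CPM in controls 1, 2 and 3. The null sum was 0.746 times the control sum in the lettered and 0.794 times in the unlettered set. By role, the ratio in the lettered and that in the unlettered set were 0.639 and 0.733 for snoRNPs, 0.737 and 0.794 for polymerase I, 0.764 and 0.636 for the small subunit, 0.840 and 0.808 for the large subunit, and 0.768 and 0.902 for the genes of several steps.

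Set against their own controls, members had negative median ratios in both title sets. Since the list was drawn up with these libraries' results known, and each set has a group of 1 library, this is a description with no test and no independent support. The median log2 ratio of members was -0.42 in the lettered set, where it was near 0 over all tested genes, and -0.69 in the unlettered set, where it was 0.082 over all tested genes. In 40 members every null lay below every control of its own set in both sets, as in 21.5% of all tested genes, and in 2, Polr1c and Npm1, above. For scale, control 2 differed from control 1 by a median log2 ratio of 0.22 over members, with 47 of 58 higher in control 2, and null 3 from null 2 by 0.13. The difference of the null-to-control ratio between sets, tested as an interaction term, passed for 0 members by edgeR, which called 0.00951% of all tested genes (1 gene), and for 0 members by DESeq2, which called 94 genes in all. At an unadjusted p under 0.05 it did so for 4 members (6.90%, against 7.21% of all tested genes). The log2 ratio in the lettered set minus that in the unlettered set was 1.33 for Heatr1 and 1.29 for Tsr1, and -0.94 for Nip7 and -0.77 for Nop10. Nip7, needed for large-subunit assembly, had 285, 54.5 and 60.3 CPM in the nulls and 156, 204 and 69.3 CPM in the controls. With only 3 libraries a set and 2 residual degrees of freedom, an interaction that misses the threshold does not show that the ratios were alike.

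**Figure D3:**
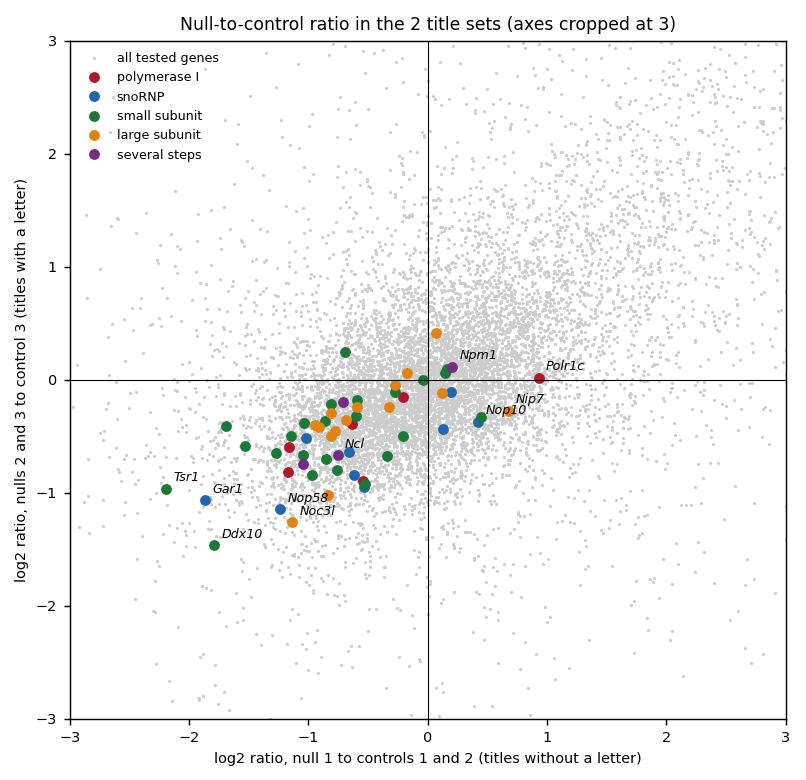
Each point is a gene, with the log2 ratio of null 1 to controls 1 and 2 on the x axis and that of nulls 2 and 3 to control 3 on the y axis, members in the colours of their roles and all tested genes in grey. Members were negative on both axes in 45 of 58 genes, and Ddx10, Tsr1 and Gar1 lie farthest toward the lower left.

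The title sets themselves differed in members, as they did in many other tested genes, a contrast that the choice of genes did not use. By edgeR with group in the model, 10 of 58 members were higher in the lettered than in the unlettered set. That is close to the share over all tested genes, 17.7%. Of the 58 members 13 were lower, where 10.9% of all tested genes were. Gar1 rose by 2.88 on the log2 scale in the lettered set (adjusted p = 0.000129), Utp18, a member of a small-subunit precursor complex, by 2.63 (adjusted p = 1.27e-05) and Rrs1 by 2.57 (adjusted p = 2.77e-05). Ddx51, a large-subunit helicase, rose by 2.08 (adjusted p = 0.00352) and Imp3, a partner of Imp4, by 1.73 (adjusted p = 0.000712). Npm1 fell by 1.92 in the lettered set (adjusted p = 2.46e-06), Nip7 by 1.85 (adjusted p = 5.55e-05), Rrn3 by 1.32 (adjusted p = 0.000206) and Polr1c by 1.14 (adjusted p = 0.00424). These are the largest set differences in each direction, picked by size after the values were seen. The share of CG bases in the transcript and the set ratio had a Spearman rho of 0.43 over 58 members and 0.19 over all tested genes, a description across genes of the same 6 libraries.

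**Figure D4:**
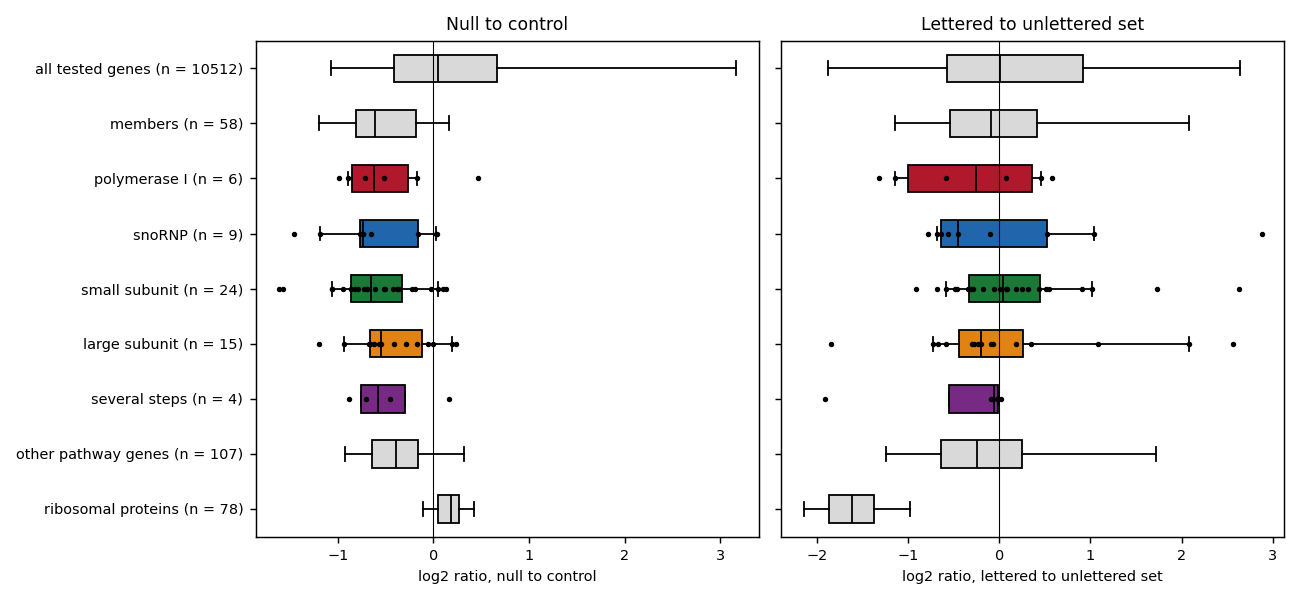
Boxes span the quartiles and whiskers the central 90% of log2 ratios of null to control (left) and of the lettered to the unlettered set (right), with points for single members. The medians of the member classes lie left of 0 in the left panel, though each class has a gene right of 0. The ribosomal proteins have a median of 0.19 there and lie far left in the right panel, at a median of -1.61.

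Other genes of the pathway, 107 factors of the same steps that are not among the 59, were tested in the same fit. Of these 9 fell (8.41%) and 1 rose (0.935%), where 4.16% of all tested genes fell and 8.65% rose. The median log2 ratio of the 107 was -0.39, and 92 were negative. The calls were 0 of 12 for polymerase I, 1 of 11 for snoRNPs, 1 of 30 for the small subunit, 6 of 41 for the large subunit (5 lower and 1 higher) and 2 of 13 for the exosome and related nucleases. Nol12, an RNA-binding nucleolar protein, stood at 39.3, 32.0 and 41.9 CPM in the nulls, against 72.3, 83.9 and 85.0 CPM in the controls, and fell by 1.10 (SE 0.20, adjusted p = 0.0050, edgeR). Ppan, a large-subunit factor, fell by 0.74 (SE 0.17, adjusted p = 0.0143), and Xrn2, the exonuclease that trims rRNA precursors, fell by 0.79 (SE 0.18, adjusted p = 0.0154). Gltscr2, the counterpart of yeast Nop53, was the gene that rose, with 94.8, 187 and 164 CPM in the nulls and 51.3, 48.7 and 134 CPM in the controls (log2 ratio 0.66, SE 0.17, adjusted p = 0.0299). The number that fell was 0 with group alone, 1 with the Y-linked term, 13 with RLE size factors, 14 with globins left out, 21 without a filter, 25 with DESeq2 and 32 with length and GC offsets. It was 0, 5 and 22 without nulls 1, 2 and 3, and 6, 3 and 5 without controls 1, 2 and 3. Over all tested genes the share called lower was 0.00951% with group alone and 0.59% with the Y-linked term. That share was 4.95% with RLE size factors, 5.13% with globins left out, 3.8% without a filter, 4.75% with DESeq2 and 10.1% with the offsets. Without a filter and with DESeq2 that share is over 19008 genes, all those with a read, of which 723 and 902 were called lower. Without nulls 1, 2 and 3 it was 0.368%, 2.13% and 6.68%. Without controls 1, 2 and 3 it was 1.98%, 1.92% and 1.62%. The number that rose was 0 with group alone, with the Y-linked term, with globins left out, and without control 1, control 2, null 1 or null 2, and 2 with DESeq2 and with length and GC offsets.

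The ribosomal proteins, the products that these factors assemble, had another pattern. Of 78 tested genes 0 rose and 0 fell by edgeR, and DESeq2 called 0. At an unadjusted p under 0.05 by edgeR 9 were higher and 0 lower. Of all 10512 tested genes 1720 were higher and 1205 lower at that threshold. Their median log2 ratio was 0.19, but -0.11 with group alone and -0.26 with length and GC offsets, where 30 fell and 10.1% of all tested genes did. It was -0.28 in the lettered and 0.57 in the unlettered set, and 55 of the 78 genes had an unadjusted interaction p under 0.05, none of which passed adjustment. Without control 3, 12 of them rose, and without null 3, 1, and 3 rose without a filter. In the lettered against the unlettered set 73 fell, with a median of -1.61, against 0 for the group. Rpl5 and Rpl11, which bind Mdm2 when ribosome assembly is disturbed, had log2 ratios of 0.097 (SE 0.14, adjusted p = 0.709) and 0.16 (SE 0.21, adjusted p = 0.669).

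MYC is a known activator of ribosome assembly genes, and MXD proteins compete with it for its partner MAX. Of 9 tested genes of this network 2 rose and 0 fell, where 8.65% of all tested genes rose and 4.16% fell. At an unadjusted p under 0.05 by edgeR 2 were higher and 3 lower. Mxd1 stood at 28.5, 33.6 and 30.3 CPM in nulls 1, 2 and 3, against 5.48, 6.66 and 12.4 CPM in controls 1, 2 and 3, without overlap, and rose by 1.78 in log2 (SE 0.31, adjusted p = 0.00346, edgeR). Mxd4 stood at 3.21, 25.1 and 9.15 CPM in the nulls, against 0, 0 and 1.86 CPM in the controls, and passed the same test (adjusted p = 0.00976). Myc had 60.7, 106 and 167 CPM in the nulls and 69.8, 94.6 and 210.0 CPM in the controls, with a log2 ratio of -0.53 that did not pass (SE 0.21, adjusted p = 0.121). Mxd3, picked out after its values were seen, had the lowest log2 ratio of the network, -2.11 (SE 0.76, adjusted p = 0.106), and did not pass, with 3.21, 4.0 and 8.27 CPM in the nulls and 43.7, 6.87 and 15.3 CPM in the controls. Mycn had 0, 6.26 and 1.03 CPM in the nulls and 0.148, 0 and 0.0465 CPM in the controls and was not tested. With group alone, with the Y-linked term, and without null 1, 0 genes of the network rose, and without null 2, 1 did. The number that fell was 2 without a filter and with length and GC offsets, and 1 with DESeq2, with the Y-linked term, without control 2 and without null 3. The part of this network in the lower level of ribosome assembly genes was not tested.

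Summed markers of macrophages, endothelium, megakaryocytes and progenitors were higher in every null than in every control library, and those of hepatic cells were not. The 13 macrophage markers in the files summed to 35.4 to 93.1 CPM in nulls and to 2.34 to 12.1 CPM in controls, and 3 of the 7 tested, Csf1r, Cd68 and C1qb, rose. The 10 endothelial markers summed to 7.39 to 23.1 CPM in nulls and to 0.479 to 1.58 CPM in controls, with Emcn and Cldn5 at 0 and the 3 tested genes, Pecam1, Tek and Eng, risen. The 9 megakaryocyte markers summed to 43.0 to 87.2 CPM in nulls and to 14.3 to 35.8 CPM in controls. Of the 5 tested, 1, Itga2b, rose, 1 had every null below every control, and the lowest log2 ratio was -0.37. The lettered set was higher than the unlettered one for 3 of these 5. The 8 progenitor markers summed to 15.3 to 30.4 CPM in nulls and to 3.62 to 7.67 CPM in controls, with Hoxa9 at 0. Of the 4 tested, 1 rose, and the log2 ratio was positive for 3 and negative for 1 (-0.34). The 7 hepatic markers summed to 0.103 to 4.27 CPM in nulls and to 0.148 to 3.35 CPM in controls, with Alb at 0. Tfrc, the antigen CD71 of the sort, had 192, 273 and 266 CPM in nulls and 398, 435 and 443 CPM in controls and fell by 0.92 (SE 0.16, adjusted p = 0.00363, edgeR). The part of these cells in the lower level of ribosome assembly genes was not tested.

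Transcript length moved with the ratio as well. Over the 58 members, length and the log2 ratio had a Spearman rho of -0.38, and over all tested genes with a length -0.17. The 6 members under 1500 bases had a median ratio of -0.066, the 24 from 1500 to 3000 bases -0.51 and the 28 over 3000 bases -0.72. All tested genes in the same ranges had medians of 0.23, 0.099 and -0.10. The part of transcript length in the lower level of members was not tested. With length and GC content removed as offsets, an alternative added after seeing the data, 32 members fell and the median was -0.69, in a fit that moved the median of all tested genes to -0.085 and called 10.1% of them lower. The strand of counting is not given, and 21 of the 59 genes overlap an exon on the opposite strand in the GENCODE M21 annotation, where reads of the genes of a pair cannot be told apart. Of the 22 members that fell, 6 do, Nop56 with Idh3b, Dkc1 with Mpp1, Tsr1 with Srr, Mybbp1a with Spns2, and Wdr43 and Imp4 with noncoding genes, and 16 do not.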

How the data were processed

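Polyadenylated RNA of 6 libraries was analysed from the deposited files, which hold whole-number counts per gene symbol without normalization. The tools, per the submitters' processing notes, were FastQC, Trimmomatic 0.32, TopHat2 2.1.0, HTSeq 0.6.1 and edgeR, and the build was mm9. Their order, options and strand setting are not stated. Symbols turned into dates were mapped back to the March and Septin families. Summary lines that name no gene were left out, and reads without a feature made up 6.07%, 42.9% and 7.72% of null 1, control 1 and control 2.

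Genes were kept by filterByExpr, scaled by TMM and compared in R 4.3.3 with edgeR 4.0.16 (glmQLFit with robust=TRUE and glmQLFTest, 2-sided, Benjamini-Hochberg over all 10512 tested genes at 0.05), with title set and group as terms and 3 residual degrees of freedom. The standard error is the absolute log2 ratio over the root of F. CPM values are TMM-scaled, and 3 counts correspond to 0.140 to 0.387 CPM. Ratios within a set subtract mean log2 CPM values (prior count 2) and carry no test, since each set has a group with 1 library. The set term, the members and all lists were chosen with earlier results of these data known. Values in each library are given for the genes with the smallest adjusted p (up to 5) and the highest mean level (2) in each role. Same-group libraries were not duplicates (chi-square per degree of freedom 21.9 to 369.1). Lengths and overlaps come from GENCODE M21 and promoters from RefSeq, both on GRCm38, matched by symbol, with no coordinate converted from mm9. The alternatives were RLE size factors, no filter, globins left out, DESeq2 1.42.0, group alone, a Y-linked term, length and GC offsets, a prior count of 0.5 and each library left out. The edgeR script was tested on simulated counts with a smaller spread than these data, whose common coefficient of variation was 0.399. That run does not measure its error rate here.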

Additional observations from a re-analysis of the deposited data

How the results depend on the processing

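The count of members that fell was 22 with the title set as a term, 0 with group alone and 1 with title set and Y-linked transcripts as terms. The shares of all tested genes called lower in these fits were 4.16%, 0.00951% and 0.59%. The count of members was 24 with RLE size factors and with globins left out, 28 without a filter and 31 with DESeq2. These last 4 settings kept all 22 genes, and they called 4.95%, 5.13%, 3.8% and 4.75% of the genes in each fit lower. Without a filter and with DESeq2 the share is over 19008 genes, all those with a read, of which 723 and 902 were called lower. Those 2 shares are thus not on the scale of the share over 10512 genes. With 1 library left out the count of members ran from 1 (without null 1) to 31 (without null 3). It was 14, 9 and 12 without controls 1, 2 and 3 and 13 without null 2. The share of all tested genes called lower ran from 0.368% without null 1 to 6.68% without null 3. The median log2 ratio of members ran from -0.42 without null 1 to -0.76 without null 3. Without null 1 the unlettered set has no null, and without control 3 the lettered set has no control, so those fits compare the groups within 1 set. No member rose in any of these fits. Among the 26 members picked by adjusted p and mean level, 19 lost their pass with group alone and 18 with the Y-linked term. Without control 1, control 2 and null 2 a pass was lost by 6, 10 and 9 of them. DESeq2 added a pass for 2 of the 26, and the length and GC offsets for 3. The summed level of members in null over control was 0.698 in the lettered set with globins left out of the library size, against 0.746 with them. The title set counts and medians within sets stayed within 1.5 times or within the spread between null libraries under the alternatives run. No paired analysis was possible because the labels give no replicate numbers that groups share. Genes such as Gar1 and Rrs1 were low in the unlettered set, with at most 7.51 and 10.8 CPM in a library. That set held the libraries with the fewest and the most gene counts, 7756940 in control 1 and 21434719 in control 2.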
